A study of Mus musculus with 11 samples.

Results

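The transcription factors that place newborn retinal cells on the photoreceptor path, or sort them into rods and cones, were followed in the developing mouse retina. The set is Crx, Otx2, Nrl, Nr2e3, Prdm1, Neurod1, Thrb, Rxrg, Rorb and Mef2d, 10 of the 47069 genes in the count tables, and they were taken by name. All 10 passed the filter on low counts, among 18188 genes tested. The 11 RNA-seq libraries came from C57BL/6 mouse retinas at postnatal days 4 and 8 (P4 and P8). At P4 the wild type had 2 libraries and Kir2.1 had 3, and at P8 each genotype had 3. In the Kir2.1 group, human Kir2.1 fused to eYFP is transcribed from a CAG promoter once Brn3b-Cre has removed a floxed stop cassette. Kir2.1 is a potassium channel that damps electrical activity, and Brn3b marks retinal ganglion cells, so the transgene is aimed at ganglion cells and not at photoreceptors.

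The labels disagree with each other in places. The genotype field calls the controls wild type, and the protocol names Brn3b-cre mice, so the controls may carry Cre as well. The age field gives P8 for the older libraries, and the protocol gives P11. The source field names ganglion cells, but the tissue field names retina, and whole retinas were dissociated with no sorting described. In all 11 libraries the 17 rod genes listed were summed at 924 CPM or more (CPM are counts scaled to the library total, here with TMM factors that correct for composition), and the 12 ganglion cell genes ranged from 173 to 1417 CPM. The labels state neither sex nor whether the libraries of a group came from separate animals, so p-values measure only the spread between these libraries.

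Photoreceptors arise from dividing progenitors in an ordered way. Otx2 turns cells that have left the cell cycle towards photoreceptor and bipolar fates and switches on Crx, Prdm1 holds such cells to the photoreceptor fate, and Rorb acts upstream of Nrl. Nrl then sets rod over cone fate and activates Nr2e3, which represses cone genes, while Thrb and Rxrg act in cones on the choice of opsin. Rods are by far the most numerous cells of the mouse retina, and many mature during the first postnatal weeks.

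Crx and Otx2 are homeodomain proteins that bind a core written TAATCC, which reads GGATTA on the other strand. Each gene was matched by symbol to RefSeq promoter sequences of GRCm38.p6, and all 10 had at least 1 entry, 16 starts in all. In the 250 bases before a start, TAATCC was found on either strand at 3 of the 16 starts, in 3 of the 10 genes, and in 6.252% of 32851 mouse promoters of that length. Crx held 2 matches, at -94 to -89 and -21 to -16 from its start. Otx2 held 1 at the third of its 4 listed starts (-211 to -206), and Thrb held 1 (-46 to -41). The Otx2 and Thrb matches lay in bases annotated as exon of the same gene, so Crx alone held matches outside annotated exons. Exons were not left out of the count over all promoters. Shown here are the upstream stretches outside annotated exons of 3 genes that were higher at P8 than at P4 in the Kir2.1 group, Crx with its matches in capitals, and Nr2e3 and Mef2d without a match. The Crx stretch is chr7:15879969-15880205 on the minus strand, that of Nr2e3 is chr9:59950118-59950329 on the minus strand, and that of Mef2d is chr3:88142122-88142371 on the plus strand.
Crx: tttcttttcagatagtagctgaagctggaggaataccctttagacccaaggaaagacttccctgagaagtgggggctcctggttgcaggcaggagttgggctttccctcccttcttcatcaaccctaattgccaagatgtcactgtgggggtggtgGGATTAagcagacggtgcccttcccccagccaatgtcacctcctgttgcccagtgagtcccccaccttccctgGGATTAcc
Nr2e3: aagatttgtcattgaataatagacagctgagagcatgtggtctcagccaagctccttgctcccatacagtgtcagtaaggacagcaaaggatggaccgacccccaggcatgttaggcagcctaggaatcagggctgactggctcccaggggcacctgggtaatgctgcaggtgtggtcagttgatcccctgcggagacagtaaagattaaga
Mef2d: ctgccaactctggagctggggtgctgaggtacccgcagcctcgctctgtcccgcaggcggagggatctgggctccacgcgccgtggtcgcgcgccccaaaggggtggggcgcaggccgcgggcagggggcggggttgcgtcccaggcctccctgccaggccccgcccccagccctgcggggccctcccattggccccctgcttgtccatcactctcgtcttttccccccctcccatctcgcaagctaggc

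Cores of other members were also searched for. TGCTGA, part of the site bound by the Maf family to which Nrl belongs, lay before 4 of the 16 starts (in Otx2, Neurod1, Rorb and Mef2d) and in 16.079% of all promoters. AGGTCA, the core read by nuclear receptors such as Thrb, Rxrg and Rorb, lay before 2 of the 16 starts (in Thrb and Rxrg) and in 14.024% of all promoters. Both strands were searched for each, and neither core overlaps TAATCC in these genes. The TGCTGA matches of Otx2 and Neurod1 also lay in annotated exons. A match describes letters only.

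Libraries within a group were uneven. Counts assigned to genes ranged from 9362215 to 12478838 per library. Wild-type P4 replicate 2 had a summed level of 10 cell division genes of 969 CPM, against 2205 to 2714 CPM in the other P4 libraries, and 2239 CPM of rod genes against 924 to 1431 CPM. Wild-type P8 replicates 1 and 2 had 1753 and 4861 CPM of rod genes, and the remaining P8 libraries had 9155 to 9678 CPM. Kir2.1 P8 replicate 2 had at least 1 count for 31325 genes, against 22609 to 24591 elsewhere, and 38.1 CPM of pigment epithelium genes against 10.01 to 21.9 CPM. In whole retina, fewer photoreceptors and less RNA per photoreceptor cannot be told apart. Values below are in the order of replicate number.

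**Figure D1:**
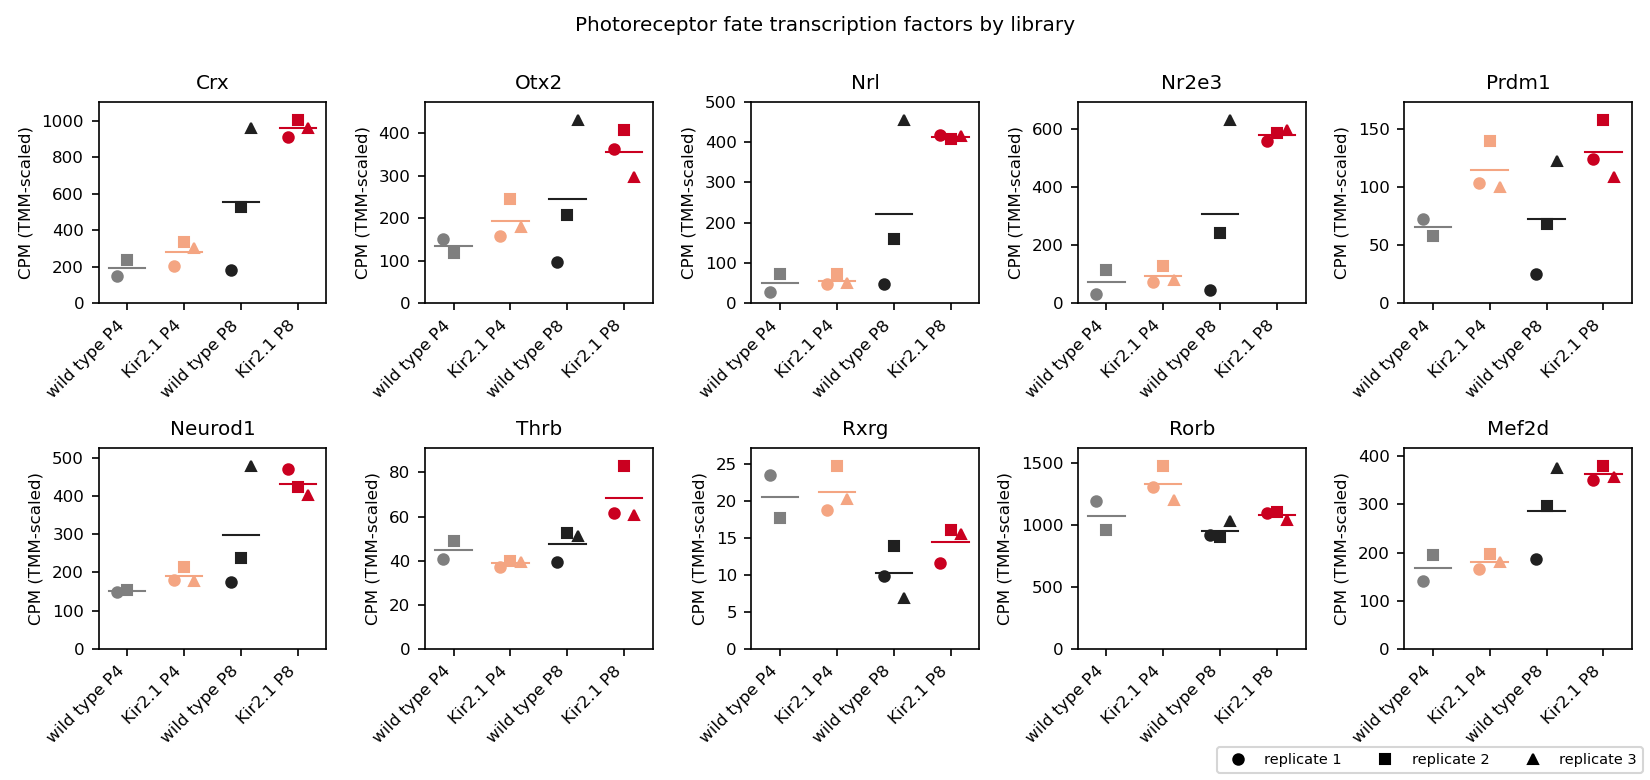
Level of each of the 10 genes in each library, in TMM-scaled CPM on a linear axis from 0, by group. Each point is a library, its shape gives the replicate number, and the horizontal line is the group mean. Nrl in the wild-type P8 group runs from 47.3 to 455 CPM, while the 3 Kir2.1 P8 libraries lie between 409 and 419 CPM.

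The first question was how these genes differed between the ages, for which the Kir2.1 group had 3 libraries at each. There 6 of the 10 genes rose from P4 to P8 and none fell by edgeR's quasi-likelihood test (Benjamini-Hochberg adjusted p under 0.05). Of all genes tested, 7.93% were called higher, 8.73% lower and 16.7% in either direction. The 6 were Crx, Nrl, Nr2e3, Neurod1, Thrb and Mef2d. The median log2 fold change of the 10 genes was 0.94, and that of all genes was 0.0046. The groups did not overlap for 7 genes that were higher (19.4% of all genes) and 2 that were lower, Rxrg and Rorb (18.7% of all genes). Other cell lists moved in the same comparison (edgeR). All 10 cell division genes fell (median log2 fold change -3.69), 9 of 12 ganglion cell genes fell and 1 rose (median -1.57), and 9 of 10 bipolar cell genes rose (median 3.02). The 9 ganglion cell genes called lower went to 2 without Kir2.1 P8 replicate 2, to 3 without P8 replicate 3 or P4 replicate 1 or 3, and to 6 without P8 replicate 1. Bipolar cells also express Otx2 and Crx. The part of these shifts in the values of the 10 factors was not tested.

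The rod regulators had the widest range between ages. Nrl, the leucine zipper factor without which rods become cone-like, was at 46.7, 72.5 and 49.0 CPM in the Kir2.1 P4 libraries. At P8 it was at 419, 409 and 414 CPM. All 3 P8 libraries lay far above all 3 P4 libraries, and the log2 fold change was 2.88 ± 0.62 (SE; edgeR adjusted p = 0.00804). Nr2e3, the nuclear receptor that represses cone genes in rods, was at 74.0, 128 and 78.6 CPM at P4, and at 557, 584 and 595 CPM at P8. The groups stood apart in the same way, with a log2 fold change of 2.63 ± 0.70 (edgeR adjusted p = 0.0244). Its call was lost when any 1 of the 6 libraries was left out, with edgeR adjusted p from 0.0501 to 0.102 and a log2 fold change from 2.46 to 2.92.

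Among factors shared by rods and cones, Crx, which drives most photoreceptor genes, was at 202, 338 and 302 CPM in the Kir2.1 P4 libraries. At P8 it was at 914, 1006.5 and 959.7 CPM, so that the lowest P8 library was above the highest P4 library. The log2 fold change was 1.77 ± 0.44 (edgeR adjusted p = 0.016). Mef2d, a MADS-box factor that works with Crx at photoreceptor genes, was at 166, 196 and 181 CPM at P4 and at 351, 379.9 and 357 CPM at P8. These groups did not overlap, and the log2 fold change was 1.003 ± 0.207 (edgeR adjusted p = 0.00648). Neurod1, a basic helix-loop-helix factor needed for photoreceptor survival, was at 180.4, 214 and 177 CPM at P4 and at 471, 422 and 402 CPM at P8. All P8 values were higher than all P4 values, with a log2 fold change of 1.18 ± 0.275 (edgeR adjusted p = 0.0123). The calls of Crx and Neurod1 were lost without Kir2.1 P4 replicate 1 (edgeR adjusted p = 0.0814 and 0.0588) or replicate 3 (0.0501 and 0.0507).

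The early factors did not pass the test between ages. Otx2 was at 157, 244 and 179 CPM in the Kir2.1 P4 libraries and at 362, 406 and 296 CPM at P8. The groups did not overlap, yet the log2 fold change of 0.87 ± 0.39 missed the threshold (edgeR adjusted p = 0.158). Otx2 is also made in the pigment epithelium, whose genes were highest in Kir2.1 P8 replicate 2. Those genes summed to 12.4, 38.1 and 13.0 CPM in the Kir2.1 P8 libraries, and Otx2 too was highest in replicate 2. The part of pigment epithelium in the Otx2 level was not tested. Prdm1, a zinc finger repressor also called Blimp1, was at 104, 139.7 and 100.2 CPM at P4 and at 124, 157 and 108 CPM at P8. Its groups overlapped, with a log2 fold change of 0.18 ± 0.39 (edgeR adjusted p = 0.818). Rorb, an orphan nuclear receptor present in progenitors and several neuron types, was at 1306, 1481 and 1205 CPM at P4 and at 1099, 1108 and 1039 CPM at P8. Each P8 library was below each P4 library, and the log2 fold change was -0.30 ± 0.11 (edgeR adjusted p = 0.0919). In an edgeR fit to the 6 Kir2.1 libraries alone, Otx2 and Rorb passed (adjusted p = 0.00198 and 0.0484), with log2 fold changes of 0.88 and -0.30. That fit called more of all genes than the main one, 2120 higher and 2144 lower of 16512 tested.

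The 2 cone receptors went in different directions. Thrb, the thyroid hormone receptor whose beta2 isoform favours the M opsin, was at 37.2, 39.9 and 39.5 CPM in the Kir2.1 P4 libraries. At P8 it was at 61.5, 83.0 and 60.7 CPM, with replicate 2 the highest and no overlap with P4. The log2 fold change was 0.81 ± 0.16 (edgeR adjusted p = 0.00456), the lowest adjusted p of the 10 genes. The counts sum all Thrb isoforms. Rxrg, the retinoid receptor that works with Thrb in cones, was at 18.7, 24.7 and 20.3 CPM at P4 and at 11.6, 16.1 and 15.5 CPM at P8. Its P8 values were all lower than its P4 values, with a log2 fold change of -0.56 ± 0.25 that did not pass (edgeR adjusted p = 0.153).

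In the wild-type group, none of the 10 genes passed the same test, against 4.39% of all genes (0.803% higher and 3.58% lower). There were 6 with an unadjusted p under 0.05 (edgeR; 19.6% of all genes), and DESeq2 called 5, namely Crx, Nrl, Neurod1, Rxrg and Mef2d, against 8.69% of all genes. The median log2 fold change of the 10 genes was 0.81, and that of all genes was 0.026. Leaving out wild-type P8 replicate 3 dropped it to 0.31, and leaving out replicate 1 raised it to 1.101. Non-overlapping groups were found for Neurod1, which was higher (14.2% of all genes), and Rxrg, which was lower (16.9%). In this comparison all 10 cell division genes fell (edgeR; median -4.02, and -2.54 without wild-type P4 replicate 1). Of 12 ganglion cell genes 10 fell (median -2.56), and of 10 bipolar cell genes 2 rose (median 1.925), or 8 without wild-type P8 replicate 1. What these shifts contributed to the values of the 10 factors was not tested. The age comparisons in the 2 genotypes share no library, while the genotype comparisons further on use the same 11 libraries. Nrl in wild type was at 26.5 and 72.2 CPM at P4 and at 47.3, 159 and 455 CPM at P8. The first P8 library lay between the P4 libraries and the third was far above them, with a log2 fold change of 2.16 ± 0.71 (edgeR adjusted p = 0.112). The others, none called, were 2.06 for Nr2e3, 1.54 for Crx, 0.98 for Neurod1, 0.86 for Otx2, 0.76 for Mef2d, 0.15 for Prdm1, 0.084 for Thrb, -0.18 for Rorb and -1.01 for Rxrg. With wild-type P8 replicate 3 left out, Nrl was at 1.06, Nr2e3 at 0.97, Crx at 0.88, Neurod1 at 0.45, Mef2d at 0.52, Otx2 at 0.16 and Prdm1 at -0.48. With wild-type P4 replicate 1 left out, Rorb was at -0.015 and Thrb at -0.047.

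Wild-type P8 replicate 1 was the lowest of the 3 wild-type P8 libraries for 8 of the 10 genes, and edgeR's age calls changed when it was left out. Without it, Crx (log2 fold change 1.94, edgeR adjusted p = 0.00455), Otx2 (1.22, 0.0311), Nrl (2.62, 0.00853), Nr2e3 (2.56, 0.0136), Neurod1 (1.23, 0.0119) and Mef2d (0.98, 0.00658) passed, 6 of 10 against 7.19% of all genes. Without wild-type P8 replicate 2, Rxrg alone passed (-1.30, edgeR adjusted p = 0.0266), against 2.97% of all genes. The fit with no filter on low counts called 7 of the 10 (5.63% of all genes). The difference between genotypes in the change with age was tested as an interaction and is given further on.

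The second question was whether the genes differed between Kir2.1 and wild type at the same age. At P8 all 10 genes had a positive log2 fold change, compared with 50.5% of all genes, and the median was 0.54 beside 0.0034 for all genes. That median dropped to 0.38 when wild-type P8 replicate 1 was left out and went up to 1.15 when replicate 3 was. None of the 10 passed, and neither did any gene tested (0.0% called by edgeR after Benjamini-Hochberg adjustment). Thrb alone had an unadjusted p under 0.05 (0.00595; 6.82% of all genes), and DESeq2 called none of the 10. Groups did not overlap for Thrb and Rorb, 2 of 10 against 5.5% of all genes. Without the filter on low counts edgeR called 6, namely Crx, Otx2, Nrl, Nr2e3, Prdm1 and Neurod1, against 1.22% of all genes, in a fit that gave each gene's own spread no weight.

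Crx at P8 was at 181, 527 and 962 CPM in wild type and at 914, 1006.5 and 959.7 CPM in Kir2.1. Wild-type replicate 3 lay within the Kir2.1 range and the other wild-type libraries below it. The log2 fold change was 0.79 ± 0.43 (edgeR adjusted p = 0.699). Nr2e3 was at 44.9, 239.9 and 629.7 CPM in wild type and at 557, 584 and 595 CPM in Kir2.1, which gave 0.92 ± 0.67 (edgeR adjusted p = 0.741). Nrl in wild type, at 47.3, 159 and 455 CPM, lay below the Kir2.1 range of 409 to 419 CPM in 2 libraries and above it in the third, with 0.91 ± 0.58 (edgeR adjusted p = 0.718).

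Otx2 was at 95.5, 207 and 431 CPM in wild type at P8 and at 362, 406 and 296 CPM in Kir2.1, with a log2 fold change of 0.54 ± 0.39 (edgeR adjusted p = 0.741). Neurod1 was at 176, 238.5 and 478 CPM in wild type and at 471, 422 and 402 CPM in Kir2.1, with 0.54 ± 0.27 (edgeR adjusted p = 0.699). For both genes the third wild-type library was the highest of all 6. Prdm1 was at 25.01, 68.4 and 122 CPM in wild type and at 124, 157 and 108 CPM in Kir2.1, with 0.85 ± 0.40 (edgeR adjusted p = 0.699). Mef2d was at 187, 296 and 376 CPM in wild type and at 351, 379.9 and 357 CPM in Kir2.1, with 0.34 ± 0.21 (edgeR adjusted p = 0.707). In these 2 genes the third wild-type library fell inside the Kir2.1 range.

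For Rorb and Thrb the wild-type P8 libraries lay close together, within 1.14-fold and 1.33-fold, and for Rxrg within 2.02-fold. Thrb was at 39.3, 52.3 and 51.1 CPM in wild type at P8 and at 61.5, 83.0 and 60.7 CPM in Kir2.1, with a log2 fold change of 0.52 ± 0.16 (edgeR adjusted p = 0.699). Every Kir2.1 value was above every wild-type value. The fold change was 0.36 without Kir2.1 P8 replicate 2. Rorb was at 918, 908 and 1031 CPM in wild type and at 1099, 1108 and 1039 CPM in Kir2.1, with 0.18 ± 0.11 (edgeR adjusted p = 0.707), again without overlap. Rxrg was at 9.8, 13.9 and 6.9 CPM in wild type and at 11.6, 16.1 and 15.5 CPM in Kir2.1, with 0.49 ± 0.25 (edgeR adjusted p = 0.699), and its groups overlapped. The Rxrg value was 0.27 with wild-type P8 replicate 3 left out and 0.79 with replicate 2 left out.

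The 3 wild-type P8 libraries stood unevenly against the Kir2.1 range. Replicate 1 was below the Kir2.1 range for 10 of 10 genes, replicate 2 for 9, and replicate 3 for 3, with 4 genes above it. Between the lowest and highest wild-type P8 library, Nr2e3 spanned 14.0-fold, Nrl 9.63-fold, Crx 5.31-fold, Prdm1 4.89-fold and Otx2 4.51-fold. In the Kir2.1 P8 group the span of the 10 genes ran from 1.02-fold for Nrl to 1.45-fold for Prdm1. Leaving out wild-type replicate 1 took the log2 fold change to 0.36 for Crx, 0.43 for Nrl, 0.41 for Nr2e3, 0.15 for Otx2, 0.44 for Prdm1, 0.27 for Neurod1 and 0.11 for Mef2d. Leaving out replicate 3 took the same genes, in that order, to 1.44, 2.005, 2.02, 1.23, 1.47, 1.06 and 0.59. Neurod1 alone then passed (edgeR adjusted p = 0.0261), beside 1.21% of all genes.

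**Figure D2:**
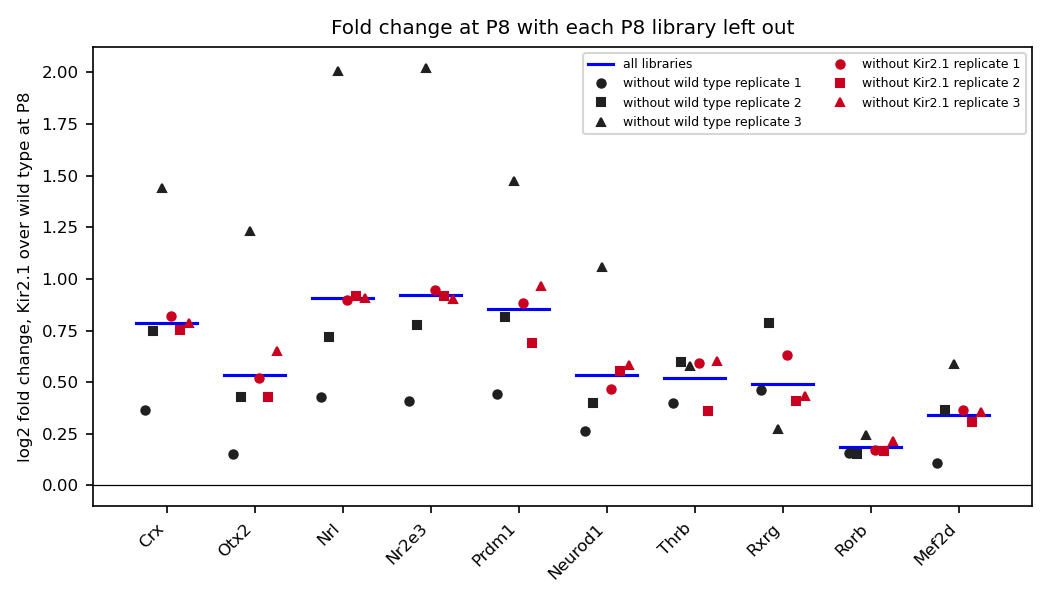
Difference between Kir2.1 and wild type at P8, as a log2 fold change, for each of the 10 genes, with all libraries (blue line) and with each P8 library left out in turn (points). Black points leave out a wild-type library and red points a Kir2.1 library, and the shape gives the replicate number. For Nr2e3 the lowest point, 0.41, leaves out wild-type replicate 1, and the highest, 2.02, leaves out wild-type replicate 3.

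Other retinal genes moved with these libraries. In wild-type P8 replicates 1 to 3, the 17 rod genes summed to 1753, 4861 and 9632 CPM, the 10 bipolar cell genes to 793, 1355 and 2284 CPM, and the 7 amacrine cell genes to 2983, 2033 and 1068 CPM. In the Kir2.1 P8 libraries the rod sum was 9155 to 9678 CPM, the bipolar sum 1521 to 1926 CPM and the amacrine sum 883 to 1551 CPM. Rod, bipolar and amacrine genes are expressed by different neurons, and within wild type at P8 the library lowest in rod genes was the highest in amacrine genes. The 10 cell division genes were low in all 6 P8 libraries, at 114 to 164 CPM. The part that cell makeup had in the values of the 10 factors was not tested.

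**Figure D3:**
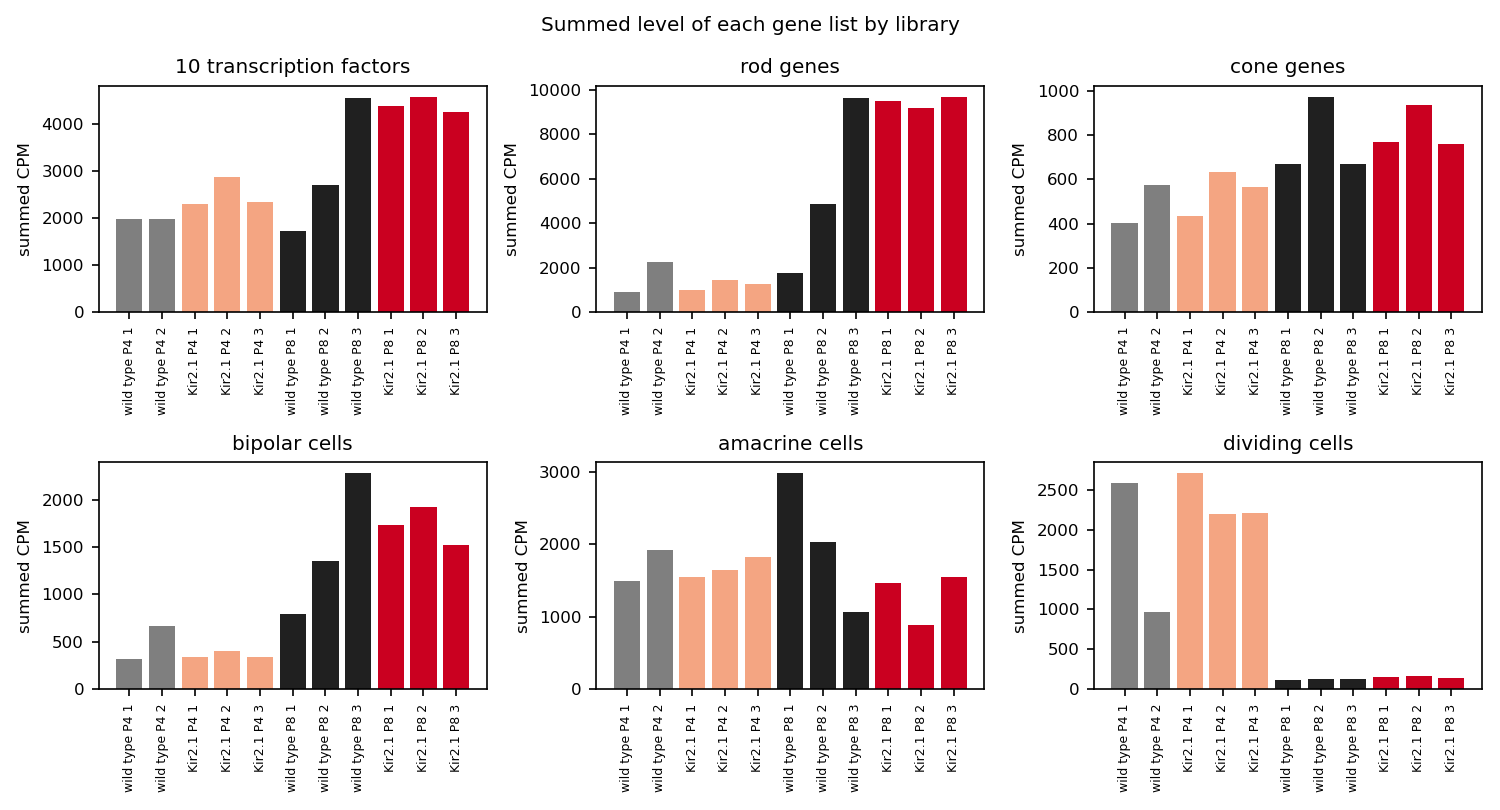
Summed CPM of the 10 transcription factors and of 5 gene lists in each library, on linear axes from 0. Bars are single libraries, coloured by group. Among the wild-type P8 libraries, the one lowest in rod genes (1753 CPM) is highest in amacrine genes (2983 CPM), and the one highest in rod genes (9632 CPM) is lowest in amacrine genes (1068 CPM).

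At P4, 9 of the 10 genes had a higher fitted level in Kir2.1 than in wild type, beside 51.3% of all genes, and the median was 0.32 beside 0.011 for all genes. The median was 0.15 when Kir2.1 P4 replicate 2 was left out, with 7 of 10 positive. With wild-type P4 replicate 1 left out, 6 of 10 were positive, and with wild-type P4 replicate 2 left out, 8 were. None passed edgeR's quasi-likelihood test after Benjamini-Hochberg adjustment, and neither did any gene tested (0.0%). Rorb alone had an unadjusted p under 0.05 (0.0315; 7.22% of all genes), and DESeq2 called none of the 10. The groups did not overlap for 4 genes that were higher, Otx2, Prdm1, Neurod1 and Rorb (12.4% of all genes), and for Thrb, which was lower (14.4%). The fit without the filter called Crx and Prdm1, against 0.928% of all genes.

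Other cell lists were read in the same P4 comparison, with none of their genes called by edgeR on all libraries with the filter on low counts. The fit without the filter, which gave each gene's own spread no weight, called 8 ganglion cell genes and 6 bipolar cell genes lower. It called 0 cell division genes. The sums of the lists did not overlap between the genotypes for ganglion cell genes and did overlap for bipolar cell and cell division genes. None of the 12 ganglion cell genes had a positive log2 fold change (median -1.15), and for 7 of them all Kir2.1 libraries were below wild type. Their sums were 1417 and 894 CPM in wild type and 715, 263 and 736 CPM in Kir2.1. The median of the 10 bipolar cell genes was -1.44, with sums of 317 and 668 CPM in wild type and 340 to 402 CPM in Kir2.1. DESeq2's test on all libraries called 3 of them lower. With wild-type P4 replicate 2 left out, the bipolar median was 0.35, with 8 of 10 positive and 0 called, and with replicate 1 left out it was -1.94, with 3 called lower (edgeR). All 10 cell division genes had positive values (median 0.32), with sums of 2595 and 969 CPM in wild type and 2205 to 2714 CPM in Kir2.1. That direction rested on wild-type P4 replicate 2, without which 3 of the 10 were positive (median -0.18), while without replicate 1 the median was 1.26. The part of these shifts in the values of the 10 factors was not tested.

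Rorb at P4 was at 1194 and 959.8 CPM in wild type and at 1306, 1481 and 1205 CPM in Kir2.1. All Kir2.1 libraries lay above both wild-type ones, with a log2 fold change of 0.31 ± 0.13 (edgeR adjusted p = 0.677) that ran from 0.16 (wild-type P4 replicate 2 left out) to 0.47 (replicate 1 left out). Prdm1 was at 72.4 and 57.7 CPM in wild type and at 104, 139.7 and 100.2 CPM in Kir2.1. It had the largest fold change of the 10 genes at this age with all libraries, 0.82 ± 0.45 (edgeR adjusted p = 0.717). With wild-type P4 replicate 2 left out, Nr2e3 (1.54) and Nrl (1.08) were larger. Otx2 was at 151 and 119 CPM in wild type and at 157, 244 and 179 CPM in Kir2.1, with 0.52 ± 0.44 (edgeR adjusted p = 0.804). Neurod1 was at 148 and 154 CPM in wild type and at 180.4, 214 and 177 CPM in Kir2.1, with 0.33 ± 0.31 (edgeR adjusted p = 0.818). Thrb was at 40.7 and 49.1 CPM in wild type and at 37.2, 39.9 and 39.5 CPM in Kir2.1. That was the sole negative value among the 10 genes, -0.21 ± 0.18 (edgeR adjusted p = 0.803), and it was -0.064 when wild-type P4 replicate 2 was left out.

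The groups overlapped at P4 for the other 5 genes. Crx was at 148 and 235 CPM in wild type and at 202, 338 and 302 CPM in Kir2.1 (log2 fold change 0.55 ± 0.48, edgeR adjusted p = 0.809), which ran from 0.25 (wild-type P4 replicate 1 left out) to 0.92 (replicate 2 left out). Nrl was at 26.5 and 72.2 CPM in wild type and at 46.7, 72.5 and 49.0 CPM in Kir2.1 (0.18 ± 0.66, edgeR adjusted p = 0.956). Nr2e3 was at 32.1 and 114 CPM in wild type and at 74.0, 128 and 78.6 CPM in Kir2.1 (0.36 ± 0.76, edgeR adjusted p = 0.925). The 2 wild-type libraries differed more from each other than from the Kir2.1 mean for both rod regulators. Leaving out wild-type P4 replicate 2 took Nrl to 1.08 and Nr2e3 to 1.54, and leaving out replicate 1 took them to -0.37 and -0.29. Rxrg, at 23.4 and 17.7 CPM in wild type and 18.7, 24.7 and 20.3 CPM in Kir2.1, had a log2 fold change of 0.05 ± 0.28 (edgeR adjusted p = 0.976). Mef2d, at 142 and 196 CPM in wild type and 166, 196 and 181 CPM in Kir2.1, had one of 0.10 ± 0.23 (edgeR adjusted p = 0.931).

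The third question was whether the genotype difference changed between the ages. For none of the 10 genes, and for no gene tested (0.0%), did the difference of differences pass (edgeR adjusted p = 0.9998 for each of the 10; DESeq2 also called none). It was 0.73 ± 0.23 for Thrb, 0.72 ± 0.87 for Nrl, 0.56 ± 0.995 for Nr2e3 and 0.44 ± 0.37 for Rxrg. It was 0.24 for Crx and Mef2d, 0.20 for Neurod1, 0.036 for Prdm1, 0.017 for Otx2 and -0.12 for Rorb. The Nrl value ran from -0.18 without wild-type P4 replicate 2 to 1.82 without wild-type P8 replicate 3. Thrb was the 1 gene of the 10 with an unadjusted p under 0.05 (0.00906; 3.09% of all genes).

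**Figure D4:**
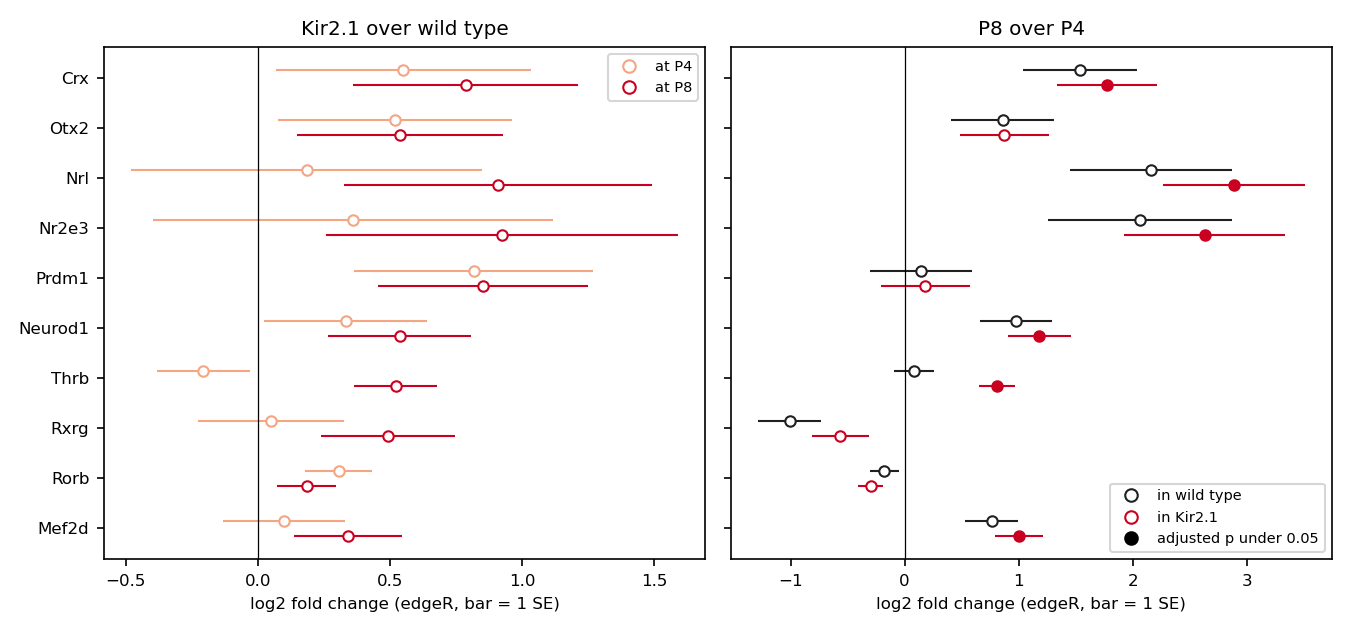
Log2 fold changes from edgeR for the 10 genes, Kir2.1 over wild type at each age (left) and P8 over P4 in each genotype (right). Bars are 1 SE, and filled points passed an adjusted p of 0.05. At left no point is filled, and at right 6 of the Kir2.1 points are filled while no wild-type point is.

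The authors' deposited tables compare the genotypes at each age, with values that do not come from the fit above. At P4, the authors' deposited table called Rorb alone among the 10 genes (log2 fold change 0.53 ± 0.13, adjusted p = 0.00875), beside 2.27% of 13830 genes with an adjusted p. Thrb (-0.28), Nr2e3 (-0.24), Mef2d (-0.0965) and Nrl (-0.049) had negative values there, and the other genes positive ones. In the fit above Thrb alone was negative at P4. At P8 the authors' deposited table called 4, beside 7.27% of 13396 genes. These were Neurod1 (1.04, adjusted p = 8.01e-07), Otx2 (1.19, 0.00021), Nrl (2.02, 0.0155) and Mef2d (0.58, 0.0348) in the authors' deposited table. Crx (1.43, adjusted p = 0.0787) and Nr2e3 (2.04, 0.121) missed the threshold in the authors' deposited table. The fit to the deposited counts of all libraries gave 0.54 for Neurod1 and Otx2, 0.91 for Nrl and 0.34 for Mef2d, and without wild-type P8 replicate 3 it gave 1.06, 1.23, 2.005 and 0.59. Which libraries entered the authors' comparison is not given in the sources used here.

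To compare levels between genes, CPM was divided by the exon length of each gene in kilobases. At P4 Rorb was highest on this per-length scale in both genotypes, at 97.2 ± 14.9 CPM per kb (SD, n = 2) in wild type and 120.2 ± 12.6 (n = 3) in Kir2.1. Crx was next by its mean, at 60.7 ± 19.4 and 88.8 ± 22.2 CPM per kb, though Neurod1 was above it in replicate 1 of each genotype (54.4 against 46.9, and 66.1 against 64.0 CPM per kb). At P8 Crx was highest by its mean, at 176 ± 124 CPM per kb (SD, n = 3) in wild type and 304 ± 14.6 in Kir2.1. In wild-type P8 replicate 1, Rorb (82.9 CPM per kb) and Neurod1 (64.4) were above Crx (57.3). In Kir2.1 at P8 Crx was followed by Nr2e3 (172 ± 5.72 CPM per kb) and Neurod1 (158 ± 13.0), whose libraries overlapped, then Rorb (97.7 ± 3.40) and Otx2 (84.0 ± 13.2), which also overlapped. Nrl (72.8 ± 0.854 CPM per kb) came next and lay within the range of Otx2, followed by Mef2d (60.6 ± 2.53) and Prdm1 (23.3 ± 4.49), each below the one before in all libraries. Thrb (9.24 ± 1.71 CPM per kb) and Rxrg (6.27 ± 1.06) were lowest. The order depends on the length used. With the longest coding transcript in place of all exons, Nrl (2504 bp in place of 5689 bp) would stand 3rd at 165 CPM per kb, and Rorb (116 CPM per kb) would stand 6th, below Otx2 (137). That choice of length was tried after seeing the data.

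Ratios of these per-length levels within a library describe the balance among the factors. In all, 7 ratios were computed, and none was tested. Prdm1 over Otx2 was 0.363 and 0.367 in wild type at P4 and 0.423 to 0.4996 in Kir2.1, and at P8 it was 0.198 to 0.250 in wild type and 0.259 to 0.293 in Kir2.1. The P8 libraries were all below the P4 libraries, and within each age the Kir2.1 libraries were all above the wild-type ones. Nrl over Crx was 0.0902 to 0.171 at P4, and at P8 it was 0.145, 0.168 and 0.263 in wild type and 0.226 to 0.255 in Kir2.1. Otx2 over Crx went from 0.379 to 0.762 over the P4 libraries and from 0.231 to 0.395 over the P8 libraries.

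The 10 profiles were also compared over the 11 libraries, as the root mean square difference of log2(CPM + 0.5) after each gene's mean was taken out. Neurod1 and Mef2d were the closest pair (0.228), with Nrl and Nr2e3 next (0.229). Rxrg was the farthest from the rod regulators, at 1.82 from both Nrl and Nr2e3. Nearest genes were then ranked among 10313 genes with a mean of at least 10 CPM, with the 10 factors themselves left out of the ranking. The profile nearest to Crx was that of Rbp3 (0.160), which encodes a retinoid-binding protein of the photoreceptor matrix. It was followed by Tulp1 (0.187), Htra1 (0.203), Prob1 (0.207) and Pias3 (0.21). Nearest to Nrl was Rom1 (0.131), a rod disc protein, then Pdc (0.194), Nt5e (0.21), Prph2 (0.28) and Lbhd1 (0.299). Nearest to Prdm1 was Rreb1 (0.199), then Fabp7 (0.244), Rxra (0.25), Akna (0.252) and Klf10 (0.28). All points share the same libraries, so these distances are descriptions.

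Other regulators known from photoreceptor development gave a different picture with age. Of the 21 listed, all tested, 5 rose and 7 fell from P4 to P8 in Kir2.1, and in wild type 0 rose and 4 fell by edgeR's quasi-likelihood test. Their median log2 fold change was -0.53 in Kir2.1 and -0.36 in wild type, beside 0.94 and 0.81 for the 10 factors. With each library left out in turn these 2 list medians ran from -0.56 to -0.20 and from -0.66 to -0.084. In wild type, leaving out P8 replicate 1 gave 4 that rose and 5 that fell (edgeR), and leaving out P4 replicate 1 gave 0 and 1. In Kir2.1, leaving out P4 replicate 1 gave 1 that rose, leaving out any other of the 6 libraries gave 2, and 5 to 7 fell (edgeR). Hes5 (-2.01 in Kir2.1 and -1.73 in wild type) and Notch1 (-1.79 and -1.49), of the Notch pathway that holds progenitors back from differentiating, fell in both genotypes, as did Nr2f1 (-1.23 and -0.98). At P8, Kir2.1 over wild type, the list's median was 0.20 with 0 of 21 called, and at P4 it was 0.29 with 0 called. The edgeR fit without the filter on low counts, which gave each gene's own spread no weight, called 4 higher at P8 and 4 higher at P4. With age in wild type that fit called 4 higher and 8 lower. The P8 median was as low as 0.038 with Kir2.1 P8 replicate 1 left out, and 0.059 with wild-type P8 replicate 1 left out. The P4 median was as low as 0.062 with wild-type P4 replicate 2 left out. With wild-type P8 replicate 3 left out, edgeR called 2 of the list higher at P8.

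The downstream genes were read in the same fits. All 17 rod genes rose from P4 to P8 in Kir2.1 (edgeR; median log2 fold change 3.54), with the transducin subunits Gnb1 at 1.40 and Gngt1 at 3.90, the phosphodiesterase Pde6a at 5.41 and Reep6 at 3.53. In wild type 0 of the 17 passed (median 2.24), but edgeR called 16 without wild-type P8 replicate 1 (median 2.67) and 13 without wild-type P4 replicate 2 (median 3.71). DESeq2 called 5, and the median was 1.34 without wild-type P8 replicate 3. Whether the rod genes changed differently with age in the 2 genotypes was read from the interaction, in which 0 of the 17 passed (edgeR; median 1.26, and -0.28 without wild-type P4 replicate 2). Kir2.1 over wild type, the median of the 17 rod genes was 0.87 at P8 and -0.41 at P4, with 0 called at either age. Without the filter on low counts, in the fit that gave each gene's own spread no weight, edgeR called 16 of the 17 higher at P8, 7 lower at P4 and 15 in the interaction, and all 17 with age in wild type. Leaving out wild-type P4 replicate 2 took the P4 median to 1.14, and leaving out replicate 1 took it to -1.14. The P8 median was 0.39 when wild-type P8 replicate 1 was left out and 1.72 when replicate 3 was, with 1 of the 17 then called. Of the 11 cone genes, 3 rose with age in Kir2.1 (edgeR), namely the transducin subunit Gnb3 (1.38), the arrestin Arr3 (1.85) and the opsin Opn1mw, which was at 0 CPM in 2 of the 3 Kir2.1 P4 libraries, and the median was 0.54. The count was 1 with any P4 library or P8 replicate 2 of Kir2.1 left out and 2 with P8 replicate 3 left out, and DESeq2 called 2. The edgeR fit without the filter on low counts called 5 cone genes higher with age in Kir2.1 and 6 in wild type. With the filter, 0 of 11 passed in wild type (median 0.87). That median was 0.34 without wild-type P4 replicate 1, 0.47 without P8 replicate 2 and 1.39 without P4 replicate 2. Of the 11, edgeR called 2 without P4 replicate 2 or P8 replicate 3 and 1 without P8 replicate 1, and DESeq2 called 2. The cone list's Kir2.1 over wild-type median was 0.11 at P4 and -0.0099 at P8, with 0 called, and with each library left out in turn it ran from -0.17 to 0.66 and from -0.22 to 0.27.

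All 10 genes are protein-coding in GENCODE M21 (GRCm38). Crx lies at chr7:15865947-15879968, Otx2 at chr14:48657677-48673819, Nrl at chr14:55518978-55524981, Nr2e3 at chr9:59942771-59960659, Prdm1 at chr10:44437177-44528501 and Neurod1 at chr2:79452521-79456751. Rorb lies at chr19:18930605-19111196, and these 7 are on the minus strand. Thrb (chr14:17660261-18038090), Rxrg (chr1:167598384-167639623) and Mef2d (chr3:88142372-88172086) are on the plus strand. Exons of Otx2 (322 bp), Neurod1 (355 bp), Mef2d (531 bp) and Nr2e3 (61 bp) overlap exons of other annotated genes. The strand setting of the counting is not given in the sources used here, so reads of those stretches cannot be assigned to 1 gene with certainty. Raw counts were lowest for Rxrg, 85 to 322 per library, and highest for Rorb, 10019 to 19297.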

How the data were processed

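RNA was sequenced from dissociated mouse retinas, and groups came from the library titles. The authors deposited whole-number counts per Ensembl gene for each library. They also deposited a table per age of their own comparison, with a mean normalized signal, a log2 fold change and its error, a statistic (a score), and p-values raw and adjusted, per the file headers. Per the submitters' processing notes, STAR 2.5.0c, HTSeq 0.6.1, SAMtools 1.9, bedtools 2.26.0, cutadapt 1.18, DESeq2 and the build mm10 were used. The annotation and strand setting are not given in the sources used here.

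Records of no gene (74.571% to 79.826% per library) were left out. Counts were filtered with filterByExpr, scaled by TMM and fitted with edgeR 4.0.16 in R 4.3.3 by the quasi-likelihood test, with 4 group means over all 11 libraries. Adjusted p-values are Benjamini-Hochberg over 18188 genes, with a threshold of 0.05. The fitting was tested on simulated data. Alternatives were DESeq2 1.42.0 (size factors, and its test), no filter, a replicate block, the compared groups alone, each library left out, and another gene length.

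The 10 genes and the other lists were chosen with earlier results of these data known. All 10 are named in each comparison. Of other lists, at most 4 genes are named, those with the lowest p. For Crx, Nrl and Prdm1 the 5 genes nearest in profile, outside the 10 factors, are named. Promoters are from RefSeq (GRCm38.p6).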

Additional observations from a re-analysis of the deposited data

Results flagged for a closer look

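Thrb was picked out because the genotypes stood in opposite order at the 2 ages. At P4 all 3 Kir2.1 libraries (37.2 to 39.9 CPM) were below both wild-type libraries (40.7 and 49.1 CPM), and at P8 all 3 (60.7 to 83.0 CPM) were above the 3 wild-type libraries (39.3 to 52.3 CPM). The difference between the 2 log2 fold changes was 0.73 ± 0.23 (edgeR adjusted p = 0.9998, unadjusted p = 0.00906). It was between 0.57 and 0.86 with each library left out in turn. The P4 log2 fold change, -0.21, ranged from -0.34 to -0.064 and was nearest 0 without wild-type P4 replicate 2. The P8 one, 0.52, ranged from 0.36 to 0.60 and was lowest without Kir2.1 P8 replicate 2. The summed cone genes, 400 to 576 CPM in wild type and 432 to 635 CPM in Kir2.1 at P4, and 669 to 972 CPM and 759 to 935 CPM at P8, overlapped between the genotypes at both ages.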

How the results depend on the processing

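Without the filter on low counts (36534 genes), edgeR called 339 genes for Kir2.1 against wild type at P4, 447 at P8, 136 for the difference between ages and 2058 for age in wild type, against 0, 0, 0 and 798. Of the 10 factors it then called 2 at P4 (Crx and Prdm1), 6 at P8 and 7 for age in wild type. In that fit the prior degrees of freedom were infinite (5.05 with the filter), so each gene's own spread between libraries had no weight. DESeq2's test called 33 genes at P4, 3 at P8 and 1580 for age in wild type, where it called 5 of the 10 factors. A fit to the compared groups alone called 113 genes for age in wild type. The cause of these changes was not tested.

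With each library left out in turn, edgeR called 0 to 6 genes at P4, 0 to 219 at P8, 0 to 1 for the difference between ages, 163 to 1339 for age in wild type and 1764 to 2169 for age in Kir2.1. Of the 10 factors it called 0 to 1 at P8, 0 to 6 for age in wild type and 3 to 5 for age in Kir2.1. Log2 fold changes that crossed 0 ranged, at P4, from -0.37 to 1.08 (Nrl), -0.29 to 1.54 (Nr2e3), -0.14 to 0.26 (Rxrg) and -0.12 to 0.35 (Mef2d). For age in wild type they ranged from -0.48 to 0.54 (Prdm1) and -0.047 to 0.23 (Thrb). For the difference between ages they ranged from -0.19 to 0.89 (Crx), -0.38 to 0.71 (Otx2), -0.18 to 1.82 (Nrl), -0.62 to 1.66 (Nr2e3), -0.38 to 0.66 (Prdm1), -0.073 to 0.73 (Neurod1), -0.28 to 0.025 (Rorb) and -0.012 to 0.49 (Mef2d).

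Replicate numbers are shared between groups, but nothing in the labels pairs the libraries. Same-numbered libraries correlated at -0.076 to 0.139 in their deviations from the group means. With a replicate block, the age comparison called 6 of the 10 factors in Kir2.1 and 0 in wild type, as without it, and Prdm1 in wild type went to -0.10. The block called 558 genes for age in wild type and 2928 in Kir2.1, against 798 and 3029.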
